A study of Canis lupus familiaris with 8 samples.

Results

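The miR-17~92 cluster is a group of 6 mature microRNAs (miRNAs) that are cut from 1 primary transcript. Its members, listed as cfa-miR-17, cfa-miR-18a, cfa-miR-19a, cfa-miR-20a, cfa-miR-19b and cfa-miR-92a for the dog (Canis familiaris) and written without the prefix below, were taken by name from a table of normalised miRNA signal in vesicle RNA of dog mammary cells. They are 6 of the 452 mature miRNAs in that table, and all 6 were present. The libraries came from vesicles in serum-free medium of 5 canine mammary tumour (CMT) lines of carcinoma origin, named CMT-119, CMT-47, CMT-28, CMT-27 and CMT-12, and of 3 normal canine mammary epithelial cell (CMEC) samples, CMEC1 to CMEC3, which the labels call biological replicates. Both groups were kept in the same serum replacement. Medium of the initial 24 hours was thrown away, and medium of the 48 hours after that was taken on day 3. Each line gave 1 library, so a line cannot be told apart from its culture, and the labels name no dog for a CMEC sample. The p-values below therefore measure the spread between these libraries.

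The cluster is transcribed as a single precursor, folded into hairpins and cut by Drosha and Dicer, and each miRNA then guides Argonaute to matching mRNAs. MYC and E2F factors are known to drive its transcription, and in human and mouse it is best known for promoting proliferation and blocking apoptosis in lymphoma and solid tumours. Its members fall into families by seed, the bases that pair with targets. miR-17 (its guide arm) and miR-20a restrain the cell cycle inhibitor CDKN1A and E2F1, miR-18a has a closely related seed, miR-19a and miR-19b share a seed of their own and are the main oncogenic members in mouse lymphoma, and miR-92a belongs with miR-25 and miR-363 and is abundant in red blood cells and endothelium.

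In canFam3, as the table gives the positions, the members lie on the plus strand of chromosome 22 from base 42478050 to base 42478772, a span of 723 bases, in the order miR-17, miR-18a, miR-19a, miR-20a, miR-19b and miR-92a. miR-17 was listed at bases 42478050 to 42478071, miR-18a at 42478151 to 42478172, miR-19a at 42478333 to 42478355, miR-20a at 42478462 to 42478484, miR-19b at 42478635 to 42478656 and miR-92a at 42478751 to 42478772. The listed intervals are 22 or 23 bases long, so signal per length orders the members as signal does. miR-19b and miR-92a have a further locus on the minus strand of chromosome X, at 104895962 to 104895983 and 104895826 to 104895847, in the related cluster of miR-106a and miR-363. The X locus held 100% to 105% of the chromosome 22 signal for miR-19b and 88.0% to 99.2% for miR-92a, so reads of these members cannot be assigned to 1 locus. The locus with the higher mean was used, which was the X locus for miR-19b and the chromosome 22 locus for miR-92a. The host gene was not analysed here. The table does not say which arm of a hairpin a listed interval holds, and the miR-17 interval may hold the other arm than the guide arm described above. The miR-17 values below are those of the listed interval and cannot be read as the level of the guide arm.

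In every library the smallest deposited signal was 1, called the floor here. Above it, values were whole multiples of 1 step per library, taken as the worth of 1 read, for 99.0% to 100% of loci within 0.05 steps. A read was worth 0.386 in CMT-28 to 2.83 in CMEC2, and the recovered reads ran from 81138 in CMT-12 and 85906 in CMEC2 to 1405893 in CMT-27. The median log2(signal + 1) of the 193 tested miRNAs was 6.93 in CMT-27, against 3.60 to 4.82 in the other libraries. CMT-27 thus stood apart in scale before any member was considered. The epithelial label was checked against miR-200a, miR-200b, miR-200c, miR-141, miR-429, miR-203 and miR-205. Their summed signal was 16.0 to 51.2 in CMEC, with miR-141 at the floor in all 8 libraries and miR-200b and miR-429 at the floor in all 3 CMEC samples. It was 16309 in CMT-27, 4005 in CMT-12 and 10.2 to 35.3 in the remaining tumour lines. The summed signal of miR-143, miR-145, miR-199 and miR-214, which mark mesenchymal or smooth muscle cells, was 7410 to 62635 in CMEC. It was 148 in CMT-27, 481 in CMT-12 and 14375 to 100906 in the remaining tumour lines, and miR-143 was its largest part in each library. In vesicle RNA these markers thus do not bear out the epithelial label of the CMEC samples, which is used here as a name.

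miR-92a carried most of the cluster's signal in each library. Its signal was 1633 in CMT-119, 1756 in CMT-47, 960 in CMT-28, 3508 in CMT-12 and 3699 in CMT-27, and 1440 in CMEC1, 711 in CMEC2 and 836 in CMEC3. CMT-27 and CMT-12 were highest, CMEC2 was lowest, and the groups overlapped because CMT-28 lay below CMEC1. Among all miRNAs of a library miR-92a ranked between 13 in CMT-12 and 31 in CMEC3. It rested on 251 reads in CMEC2 and on at least 603 in any other library.

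miR-20a, a member of the miR-17 seed family, was next in each library. Its signal was 198 in CMT-119, 167 in CMT-47, 289 in CMT-28, 343 in CMT-12 and 1553 in CMT-27, and 119 in CMEC1, 56.7 in CMEC2 and 49.9 in CMEC3. Every CMT line was above every CMEC sample, with CMT-27 far above the rest. CMEC2 held 20 reads of it and CMEC3 held 36.

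The miR-19 pair, whose members share a seed and differ little in sequence, was lower. miR-19b was at 26.9 in CMT-119, 59.7 in CMT-47, 68.8 in CMT-28, 27.8 in CMT-12 and 564 in CMT-27, and at 22.8 in CMEC1, 22.7 in CMEC2 and 5.55 in CMEC3. miR-19a was at 6.27 in CMT-119, 9.02 in CMT-47, 19.7 in CMT-28, 13.9 in CMT-12 and 119 in CMT-27, and at 3.26 in CMEC1, 5.67 in CMEC2 and 5.55 in CMEC3. Neither overlapped between the groups, but the gap was narrow: CMT-119 at 6.27 was 7 reads of miR-19a, and CMEC2 at 5.67 was 2 reads.

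miR-18a was above the floor in all 5 CMT lines and had at most 1 read in a CMEC sample. Its signal was 5.37 in CMT-119, 4.86 in CMT-47, 8.50 in CMT-28, 11.6 in CMT-12 and 52.6 in CMT-27, and 1.09 in CMEC1 and at the floor in CMEC2 and CMEC3. These are 6, 7, 22, 5 and 76 reads in the CMT lines in the order just given, and 1 read in CMEC1. The limit that a count of 0 allows, 3 reads, is worth 8.50 in CMEC2 and 4.16 in CMEC3, so the absence of reads in CMEC2 does not exclude a level like that of CMT-47 or CMT-119. PCR copies of a molecule were not told apart in these reads, so this limit covers counting error only. miR-17 was at 17.98 in CMT-27, 2.77 in CMEC3 and 1.09 in CMEC1 and at the floor in the other 5 libraries. It is the member listed lowest in every CMT line, where it had 26 reads in CMT-27 and no value above the floor elsewhere, for the listed interval, whose arm is not given.

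**Figure D1:**
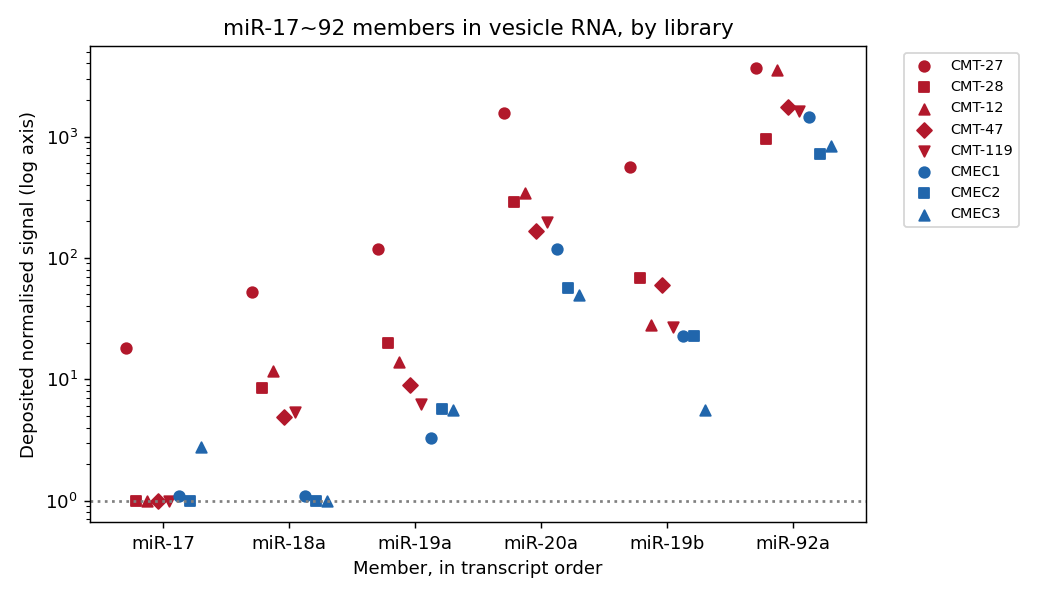
Deposited normalised signal (log axis) of each member in transcript order, with 1 point per library, CMT lines in red and CMEC samples in blue, and the floor of 1 as a dotted line. miR-92a and miR-20a lead in all 8 libraries, CMT-27 is the highest library for each member, and miR-18a is at 1 to 1.09 in the CMEC samples.

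The members differed in signal by orders of magnitude, and the order was nearly the same in each library. Reads of miR-19b and miR-92a cannot be assigned to chromosome 22 or X. Pairs with either of them thus do not compare products of the chromosome 22 transcript alone, and pairs with miR-17 may not compare guide arms. Members were compared in pairs within a library, where the scaling factor of the library drops out up to the added 1, with a two-sided exact sign-flip permutation test over the 8 libraries. Of 15 pairs, 14 passed a Benjamini-Hochberg adjusted threshold of 0.05 over the pairs, and in 13 the same member was higher in all 8 libraries. Pairs of other miRNAs were not tested, so the count is not shown to be particular to this transcript. Where miR-17 or miR-18a was at the floor, it could not be the higher member of a pair. miR-92a exceeded its neighbour in this order, miR-20a, by 3.00 ± 0.98 on the log2(signal + 1) scale (SD, n = 8; exact permutation p = 0.00781, the smallest possible, adjusted p = 0.00901). miR-20a exceeded miR-19b by 2.25 ± 0.83 (SD, n = 8; the same exact p). The log2 difference miR-19a minus miR-19b was -1.72 ± 0.86 (SD, n = 8; exact permutation p = 0.0156, adjusted p = 0.0167), with miR-19b higher in 7 libraries and both at 4 reads in CMEC3. miR-18a lay below miR-19a in 8 of 8 libraries, with a log2 difference of -0.997 ± 0.582 (SD, n = 8; exact permutation p = 0.00781). This difference was -0.447 with 10 added and -1.25 with 0.1 added in place of 1. The pairs of miR-17 with miR-18a and with miR-19a shrank in the same way with 10 added, to -0.448 and -0.896. The pair that did not pass was miR-17 and miR-18a, at -1.09 ± 1.25 (SD, n = 8; exact permutation p = 0.0625, adjusted p = 0.0625). Small RNA libraries are known to capture mature sequences with unequal efficiency, so these are differences in signal, and what part capture had in them was not tested.

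The make-up of the cluster's signal was then compared between the groups, since a share within the cluster does not depend on how a library was scaled, apart from values at the floor. miR-92a made up 79.6% ± 12.5 of the summed signal of the 6 members in tumour vesicles (SD, n = 5), against 90.9% ± 1.86 in normal ones (SD, n = 3). miR-20a made up 15.0% ± 8.10 in tumour vesicles (SD, n = 5), against 6.70% ± 1.02 in normal ones (SD, n = 3). The miR-20a share ran from 8.34% in CMT-47 to 25.9% in CMT-27 and from 5.54% in CMEC3 to 7.47% in CMEC1, so the groups did not overlap. The share difference of miR-92a, CMT minus CMEC, was -11.3 percentage points, and -6.81 without CMT-27, and that of miR-19b was 2.29 points, and 0.929 without CMT-27. The lowest miR-92a shares were those of CMT-27 and CMT-28, at 61.6% and 71.2%, against 87.3% to 89.8% in the remaining tumour lines and 89.1% to 92.8% in CMEC. The shares of miR-18a did not overlap either, at 0.243% to 0.875% in CMT and 0.0685% to 0.125% in CMEC. Its CMEC shares rest on 1 read in CMEC1 and on the floor in CMEC2 and CMEC3, so this gap is not a measured one.

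None of the 6 shares passed a two-sided exact permutation test over the 56 ways to assign 5 of the 8 libraries to CMT. The exact permutation p was 0.0714 for miR-18a, 0.125 for miR-20a and 0.143 for miR-92a, each with an adjusted p of 0.286 over the 6 shares. It was 0.339 for miR-19b, 0.446 for miR-19a and 0.464 for miR-17, each with an adjusted p of 0.464. The smallest p this design allows is 0.0179.

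**Figure D2:**
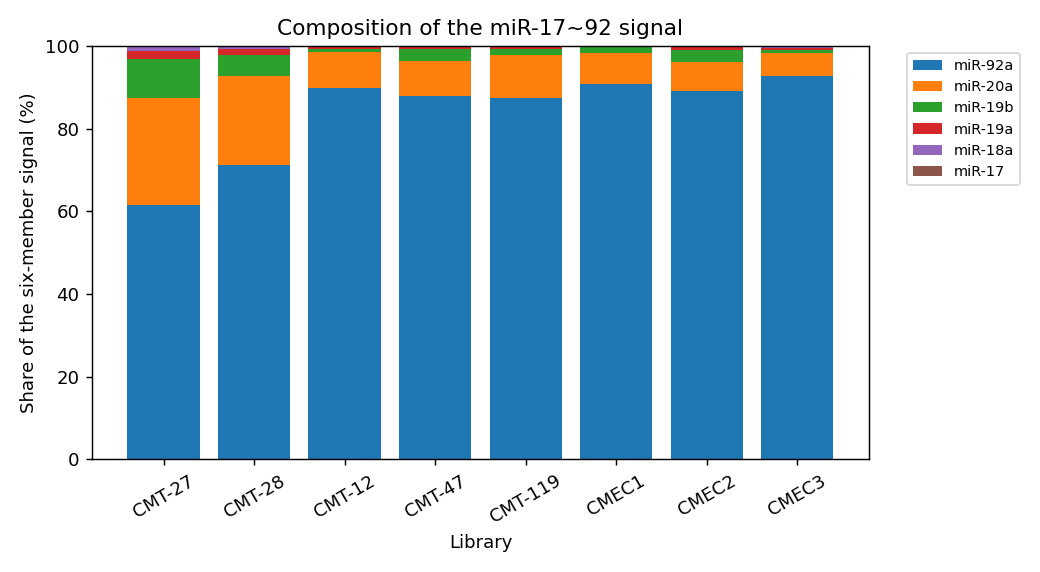
Share of each member in the summed signal of the 6 members (%), stacked per library. miR-92a fills 61.6% in CMT-27 and 71.2% in CMT-28 and 87.3% to 92.8% in the other 6 libraries, with miR-20a taking most of the remainder.

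As a percentage of the miR-92a signal, miR-20a was at 12.1% in CMT-119, 9.48% in CMT-47, 30.2% in CMT-28, 9.78% in CMT-12 and 42.0% in CMT-27, and at 8.23% in CMEC1, 7.97% in CMEC2 and 5.97% in CMEC3. The CMT values all lay above the CMEC values, and 3 of the 5 were within a few percentage points of CMEC1. The ratio of miR-20a to miR-18a was tighter among the tumour lines. It was 36.8 in CMT-119, 34.3 in CMT-47, 34.05 in CMT-28, 29.6 in CMT-12 and 29.5 in CMT-27, while miR-20a itself ran from 167 to 1553 in these lines. In CMT-12, CMT-47 and CMT-119 this ratio rests on 5 to 7 reads of miR-18a, and in CMEC no ratio can be given with confidence, since miR-18a had at most 1 read. The ratio of miR-19b to miR-19a had no such order, with 2 in CMT-12 and 6.62 in CMT-47 as the CMT extremes and 1 in CMEC3 and 7 in CMEC1 as the CMEC extremes.

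Set against the whole library, the cluster was a small part of the vesicle miRNA signal. The 6 members summed to 0.387% of a library's signal in CMT-119, 0.275% in CMT-47, 0.412% in CMT-28, 2.07% in CMT-12 and 0.617% in CMT-27, and to 0.361% in CMEC1, 0.328% in CMEC2 and 0.187% in CMEC3. CMT-12 stood far above the rest, CMT-47 lay inside the CMEC range, and the other 3 CMT lines lay above it, CMT-119 by a small margin. In CMT-12 most of this was miR-92a, with 1.86% of the library. Blood cell markers were high in the same library: the 5 listed (miR-451, miR-144, miR-486, miR-142 and miR-223) summed to 219 in CMT-12, 14.4 to 30.6 in the remaining tumour lines and 5.18 to 75.7 in CMEC. On the deposited scale, CMEC2, with the next highest blood sum of 75.7, had the lowest miR-92a signal. CMT-27, with the highest deposited miR-92a signal, had a blood sum of 14.4. These places of CMEC2 and CMT-27 depended on the scale. As a share of the library, miR-92a was 0.380% in CMT-27 and 0.292% in CMEC2, above 0.242% in CMT-47 and 0.174% in CMEC3. With library medians subtracted, miR-92a was lowest in CMT-27, at 4.92, and at 5.85 in CMEC2. In CMT-12, 4 of the 5 were above the floor, with miR-486 at 139 and miR-451 at 41.7, and miR-223 was at the floor in all 8 libraries. The liver marker miR-122 was also at 18358 in CMT-12, against at most 1703 elsewhere, while the endothelial marker miR-126 was at the floor there. The part of the blood and liver markers in the miR-92a level was not tested. Without miR-92a the cluster made up 0.0332% to 0.237% in CMT and 0.0135% to 0.0357% in CMEC, with CMT-47 at 0.0332% inside the CMEC range. In vesicle RNA, fewer vesicles, fewer cells of a type and fewer copies per vesicle cannot be told apart.

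Between the groups, all 6 members had a positive CMT minus CMEC difference on the deposited scale, and none passed the test. The model was limma on log2(signal + 1) over all 193 tested miRNAs, with Benjamini-Hochberg adjustment over all of them. miR-18a differed by 2.55 ± 0.95 (SE, 5 against 3 libraries; limma adjusted p = 0.385), and had the smallest unadjusted p of the members, 0.0164. miR-20a differed by 2.31 ± 1.06 (SE; limma unadjusted p = 0.0437, adjusted p = 0.444). miR-19b differed by 2.22 ± 1.31 and miR-19a by 1.76 ± 1.21 (SE; limma adjusted p = 0.537 for both), miR-92a by 1.11 ± 0.88 (SE; limma adjusted p = 0.594) and miR-17 by 0.32 ± 0.75 (SE; limma adjusted p = 0.807).

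Over the whole table limma called 0 of the 193 miRNAs (0%) at an adjusted p under 0.05. It gave 21 an unadjusted p under 0.05 (10.9%), of which 13 were higher in CMT (6.74%), and 2 of the 6 members were among these. A positive difference was found in 141 of the 193 (73.1%), with a median of 0.75 over all tested miRNAs, against a median of 1.99 over the 6 members. Groups that do not overlap, with CMT higher, were found in 15 of 193 (7.77%) and in 4 of the 6 members. After each library's median had been subtracted, this held for 6 of 193 (3.11%) and for 2 members, miR-18a and miR-20a, and a positive difference for 91 of 193 (47.2%) and for 5 of the 6 members. As a share of the library's signal it held for 4 of 193 (2.07%) and for miR-18a alone of the members. miR-18a passed the filter on low values through the CMT lines, and its CMEC values are the floor or 1 read, so its log2 difference depends on the added value: it was 1.03 with 10 added and 3.25 with 0.1 added. The order of the members by difference is therefore not fixed: with 10 added miR-20a led, at 2.17, and miR-18a was below miR-92a, at 1.10, and miR-19a, at 1.07.

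The size of these differences depended on the scaling. Relative to the median difference of all tested miRNAs, miR-18a was at 1.81, miR-20a at 1.56, miR-19b at 1.47, miR-19a at 1.01, miR-92a at 0.36 and miR-17 at -0.42. With library medians subtracted, the difference was 1.72 ± 0.67 for miR-18a and 1.47 ± 0.65 for miR-20a (SE; limma adjusted p = 0.377 and 0.430), and for miR-17 it turned to -0.51. CMT-27 carried part of the difference for each of the 4 middle members, and also over the whole table. Without it miR-18a was at 2.01, miR-20a at 1.77, miR-19b at 1.47 and miR-19a at 1.10 on the log2 scale as deposited. For miR-19b and miR-19a this is a change by over 1.5 times. The median difference of all tested miRNAs fell too without CMT-27, from 0.75 to 0.42, and that of miR-92a from 1.11 to 0.89.

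**Figure D3:**
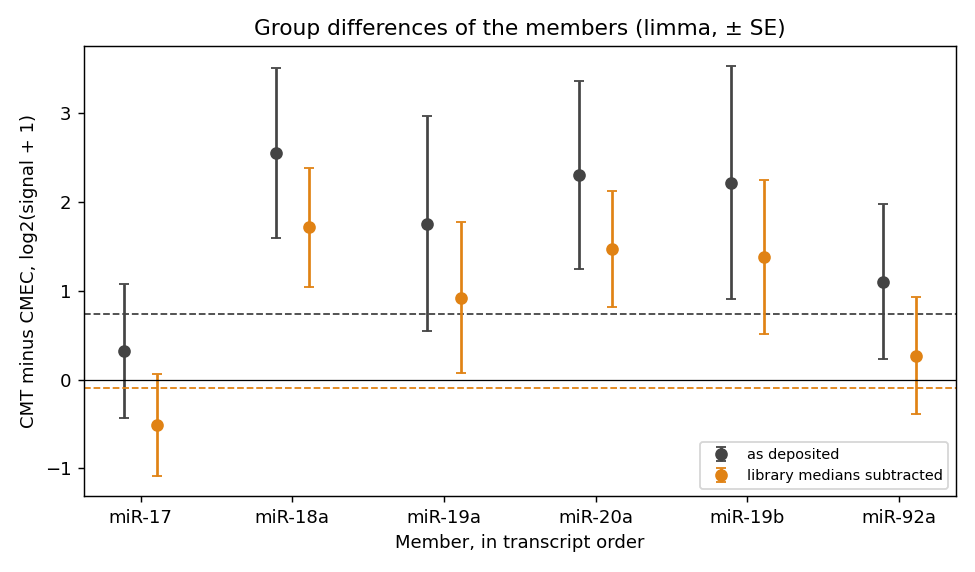
CMT minus CMEC difference of each member on the log2(signal + 1) scale with its SE (limma, 5 against 3 libraries), as deposited and with library medians subtracted. Dashed lines are the median difference of all 193 tested miRNAs, at 0.75 and -0.09. The 4 middle members lie above the dashed line on both scales, miR-92a by 0.36 and miR-17 below it.

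The 4 middle members of the transcript were also more alike over the libraries than the outer members were with them. After each library's median had been subtracted, Pearson's r over the 8 libraries was 0.64 to 0.94 for the 6 pairs among miR-18a, miR-19a, miR-20a and miR-19b, with miR-18a and miR-20a at 0.94. For pairs of these with miR-92a it ran from -0.41 to 0.23, and for pairs of miR-17 with any member from -0.29 to 0.45. On the deposited scale r was 0.87 to 0.98 within the 4 middle members, 0.61 to 0.82 for miR-92a with them and 0.47 to 0.81 for miR-17, where the libraries' scaling adds to every pair. These values describe 8 libraries of 2 groups, and miR-17 was at the floor in 5 of them. In each CMEC sample miR-18a had at most 1 read and miR-19a at most 4. The r values of these members, with 0.94 among them, thus rest partly on values at or near the floor.

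**Figure D4:**
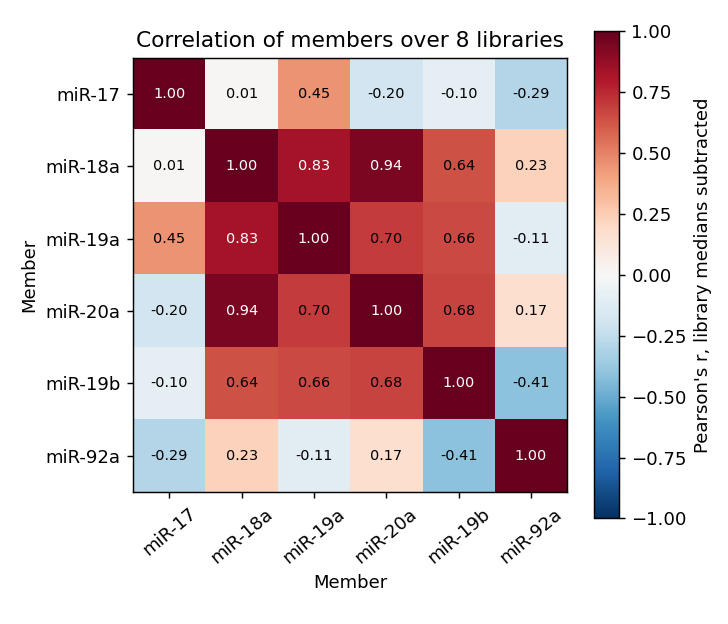
Pearson's r between members over the 8 libraries, after the median log2(signal + 1) of the tested miRNAs had been subtracted in each library. miR-18a, miR-19a, miR-20a and miR-19b form a block of 0.64 to 0.94, and miR-92a and miR-17 stand outside it. miR-18a had at most 1 read in each CMEC sample.

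The level of the members above the library median showed the same libraries in more detail. miR-20a was 2.77 above the median in CMT-47, 3.54 in CMT-119, 3.67 in CMT-27, 3.70 in CMT-12 and 4.32 in CMT-28 on the log2 scale, and 2.23 in CMEC2, 2.08 in CMEC1 and 2.07 in CMEC3. On this scale CMT-28 rather than CMT-27 was highest, and CMT-47 came closest to the CMEC samples. miR-92a was 4.92 above the median in CMT-27, the lowest of all 8 libraries, and 7.05 in CMT-12, the highest. The CMEC values of miR-92a, 5.68 to 6.11, lay inside the CMT range.

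The miRNAs whose profile over the 8 libraries was most like the mean profile of the 6 members, with library medians subtracted, were miR-181b (Pearson's r = 0.90), miR-181a (0.86), miR-15b (0.84), miR-331 (0.83) and miR-155 (0.78). miR-181a and miR-181b are known from lymphocyte development, and miR-155 from immune activation and lymphoma. miR-181b was at 250 to 1706 in CMT and 53.8 to 81.6 in CMEC, and miR-15b at 11.6 to 247 in CMT and 2.77 to 7.61 in CMEC. These correlations are over 8 libraries and describe them only. The mean profile does not stand for each member. Pearson's r of a member with the mean of the other 5 was -0.01 for miR-17, -0.11 for miR-92a and 0.53 for miR-19b. It was 0.81 for miR-20a, 0.88 for miR-19a and 0.93 for miR-18a.

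The relatives of the cluster were read from a fixed list of 10 miRNAs that share a seed or a paralogous cluster with its members. In the table miR-106a, miR-92b and miR-367 were at the floor in all 8 libraries, and miR-18b was above it in CMT-27 and CMT-47 only. The other 6 passed the filter on low values, and all 6 had a positive difference, with a median of 1.60, where 141 of all 193 tested miRNAs (73.1%) were positive with a median of 0.75. With library medians subtracted, 5 of the 6 were positive with a median of 0.77, against 91 of 193 (47.2%), and miR-25 turned to -0.74. The count describes those that passed, of which miR-106b was above the floor in the 5 CMT lines and in CMEC1. limma called 0 of them, and 1 had an unadjusted p under 0.05, against 10.9% of all tested. miR-106b, of the cluster that also holds miR-93 and miR-25, was at 14.3 in CMT-119, 6.94 in CMT-47, 29.4 in CMT-28, 34.8 in CMT-12 and 306 in CMT-27, and at 9.79 in CMEC1 and the floor in CMEC2 and CMEC3. CMT-47 lay below CMEC1, and the log2 difference was 3.24 ± 1.36 (SE; limma adjusted p = 0.385). miR-93, a miR-17 seed relative, was at 168 to 1718 in CMT and 39.7 to 243 in CMEC, with a log2 difference of 1.81 ± 1.11 (SE; limma adjusted p = 0.537). miR-363 and miR-20b belong to the X-linked cluster that also holds the further loci of miR-19b and miR-92a. miR-363 reached 2312 in CMT-27 with 900 in CMT-47 but 2.32 in CMT-12, and 618 in CMEC1 but 5.67 in CMEC2 and the floor in CMEC3 (log2 difference 2.51 ± 2.05, SE; limma adjusted p = 0.604). miR-20b followed the same libraries, at 236 in CMT-27, 71.5 in CMT-47 and 80.5 in CMEC1 and at most 6.57 in the rest (log2 difference 1.39 ± 1.67, SE; limma adjusted p = 0.763). On the deposited scale CMT-27 was highest for both, for miR-92a, at 3699, and for every other member of the cluster. With library medians subtracted, miR-92a was lowest in CMT-27, at 4.92, and highest in CMT-12, at 7.05. In CMT-12, where miR-363 was at 2.32 and miR-20b at the floor, miR-92a was at 3508. The part of the X locus in the miR-92a level was not tested.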

How the data were processed

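Vesicle RNA of 5 CMT and 3 CMEC cultures was sequenced as small RNA. Per the labels, RNA came from 5 mL of medium and single reads had 50 bases. The deposited values are a linear signal per mature miRNA locus, normalised by the authors, with no value below the floor of 1. Positions are on canFam3 per the submitters' processing notes. How reads were aligned, counted and normalised is not stated in these sources. The table's 511 loci gave 452 miRNAs by keeping the locus with the highest mean for each of 45 miRNAs with several. Reads were recovered from the step between values and served only to state depth. The floor hides up to 2 reads in CMT-28 and 1 in CMT-27, CMT-47 and CMT-119.

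The 193 miRNAs that exceeded the floor in 3 or more of 8 libraries were fitted with limma 3.58.1 (R 4.3.3, eBayes with an intensity trend, pseudocount 1). The fit was also run on simulated data, which had no floor and no difference in scale between libraries. Member pairs and shares were tested with exact permutations in Python 3.11.15. Alternatives changed the pseudocount, filter, scaling, trend, weights, locus and libraries. The members, lists and tests were chosen with earlier results of these data known. Text names all 6 members, the 4 list relatives with the smallest p and the 5 miRNAs most alike in profile, besides the marker lists. Endothelial, skeletal muscle, liver and neural markers were listed too: their summed signal was 1.00 to 23.5, 27.3 to 354, 3.09 to 18358 and 122 to 5598 in CMT and 1.00 to 2.18, 191 to 3635, 5.67 to 161 and 3.83 to 260.0 in CMEC.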

Additional observations from a re-analysis of the deposited data

Results flagged for a closer look

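In the 5 CMT lines, 14 quantities were searched for a line well away from its group (the level and the share of each member, the cluster's share of the library and the mean profile), and 3 stood out. By chance about 1 group in 20 would, but that rate does not apply to miR-17, where with 4 lines at the floor any value above it stands out. CMEC, with 3 samples, was not searched. The log2(signal + 1) of miR-17 was 4.25 in CMT-27 and 1.00 in each other CMT line, which were at the floor. The same reads set the share of miR-17 in the cluster's signal, which was 0.300% in CMT-27, against 0.0742% in the next line, CMT-28, whose share is set by the floor. The cluster's share of the library was 2.07% in CMT-12, against 0.617% in CMT-27.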

How the results depend on the processing

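CMT and CMEC could not be compared as pairs, because the labels link no CMT line to a CMEC sample. The number of miRNAs called over the whole table was 0 as reported, 15 with array weights and 0 to 6 with a library left out, with the 6 found without CMEC1. Of the miRNAs with an unadjusted p under 0.05, 13 of 21 were higher in CMT as deposited and 9 of 22 with library medians subtracted. No member passed in any alternative: over these the lowest limma adjusted p was 0.0772 for miR-18a (highest 0.907) and 0.109 for miR-20a (highest 0.907), both with array weights. The difference of miR-17 turned negative with library medians subtracted (-0.51), with quantile normalisation (-0.29) and with array weights (-0.39). It was not tested without CMT-27, CMEC1 or CMEC3 or with the filter of all 8 libraries, which also removed miR-18a. The other 5 members stayed positive in each alternative run. With each library left out, miR-18a ran from 2.01 to 2.81, miR-20a from 1.77 to 2.69, miR-19b from 1.47 to 2.56, miR-19a from 1.10 to 2.11, miR-92a from 0.89 to 1.41 and miR-17 from 0.16 to 0.49. The 14 pairs that differed in level stayed 14 with each library left out and in each other alternative, and no share passed in any. With each library left out, the share difference ran from -13.9 to -6.81 percentage points for miR-92a, 5.59 to 9.97 for miR-20a, 0.929 to 3.10 for miR-19b, 0.141 to 0.553 for miR-19a and 0.263 to 0.421 for miR-18a, with the smallest in size without CMT-27. That of miR-19a was also 0.271 without CMT-28 and 0.255 without CMEC1, from 0.407. The miR-17 share difference ran from -0.116 to 0.00366 percentage points with each library left out, positive without CMEC3. miR-20a had the largest difference of the members without CMEC1 (2.69) and with array weights (1.87). miR-19b had the largest without CMT-12 (2.55, against 2.53 for miR-18a) and without CMT-12 and CMEC2 (2.85). The alternative without both libraries was chosen after seeing the data, as was scaling to equal summed signal. The planned count models on recovered reads were not run, because the floor hides single reads. The causes were not tested. Depth limits miR-17, miR-18a and miR-19a, which had at most 4 reads in each CMEC sample.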
